A study of Mus musculus with 12 samples.

Results

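The cockroach extract (CRE) response of type II alveolar epithelial (AT2) cells was compared between cells from AhRfl/fl mice and cells from Sftpc-Cre;AhRfl/fl mice. The quantity described is the interaction, the log2 CRE response of Sftpc-Cre;AhRfl/fl cells minus that of AhRfl/fl cells. All 12 libraries of the series, which are labelled WT or AhR for genotype and PBS or CRE for treatment, enter it. There were 3 libraries in each of the 4 groups, and the CRE and PBS libraries with the same replicate number were taken as a pair within a genotype, which gave 3 pairs for each genotype and 6 in all. AhRfl/fl mice carry an *Ahr* gene flanked by loxP sites and no Cre, and served as controls, so both genotypes carry the floxed allele. Sftpc-Cre;AhRfl/fl mice also express Cre recombinase under the *Sftpc* promoter, which is active in AT2 cells. Both lines were on a C57BL/6 background, and mice were 6 to 8 weeks old. The cells were freed from lung with Dispase, depleted of cells carrying CD16/32, CD45, Ter119 or Sca-1, panned on IgG, cultured on collagen I, and exposed to PBS or to CRE at 50 µg/ml for 24 h. Of 55450 genes in the counts, 20612 had enough reads to be tested, and 14543 of these had a mean of at least 1 CPM (counts per 1e6 counts of a library, scaled with TMM) over the 12 libraries. The labels do not say whether libraries came from separate mice, so p-values measure the spread between these libraries.

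AhR is a transcription factor that sits in the cytoplasm with a chaperone complex until it binds a ligand such as a dioxin, a polycyclic hydrocarbon or a tryptophan metabolite. It then enters the nucleus, pairs with ARNT and binds a short DNA element, the xenobiotic response element, near genes for metabolizing enzymes such as *Cyp1a1* and *Cyp1b1* and for its own repressor, *Ahrr*. AT2 cells make surfactant and renew the alveolar epithelium, and they answer allergen extracts, which carry proteases and microbial products, with NF-kB-driven chemokines that attract neutrophils and dendritic cells. An interaction above 0 is a more positive response, and an interaction below 0 a more negative one, in the Sftpc-Cre;AhRfl/fl cells.

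The promoters of *Ahrr*, a direct AhR target, and *Cxcl2*, a neutrophil chemokine, are shown as examples. The genotypes' responses did not overlap for *Ahrr*, as for 17.5% of all tested genes, and its interaction did not pass. Among the 6 neutrophil and dendritic cell chemokines the interaction was smallest for *Cxcl2* (0.01, SE 0.27). Each window runs from 250 bases before to 50 bases after the annotated start in RefSeq (GRCm38.p6) and is written 5′ to 3′ along the gene's strand. Capitals mark GCGTG, the core of the xenobiotic response element, in *Ahrr* (chr13:74292282-74292581, minus strand), and a form of the NF-kB site (GGG, any 2 bases, then TTTCC) in *Cxcl2* (chr5:90903649-90903948, plus strand).
Ahrr: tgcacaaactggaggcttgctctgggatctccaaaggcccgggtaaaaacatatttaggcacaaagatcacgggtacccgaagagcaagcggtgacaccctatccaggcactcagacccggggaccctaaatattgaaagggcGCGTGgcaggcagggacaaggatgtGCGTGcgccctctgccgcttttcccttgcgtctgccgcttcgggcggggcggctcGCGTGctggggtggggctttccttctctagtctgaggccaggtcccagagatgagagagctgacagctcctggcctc
Cxcl2: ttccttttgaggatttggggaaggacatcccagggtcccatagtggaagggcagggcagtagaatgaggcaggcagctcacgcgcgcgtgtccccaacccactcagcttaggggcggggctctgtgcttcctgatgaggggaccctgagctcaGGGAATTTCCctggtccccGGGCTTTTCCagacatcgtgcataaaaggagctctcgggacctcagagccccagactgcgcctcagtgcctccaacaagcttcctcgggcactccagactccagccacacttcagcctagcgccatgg

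Both motifs were searched on both strands. Of 32851 windows of that length, 10639 (32.4%) held GCGTG and 535 (1.63%) held the NF-kB form. Among 12 AhR target genes, 10 were matched to a window, and GCGTG was found in those of *Ahrr* (3 matches), *Cyp1a1*, *Cyp1b1*, *Gsta1*, *Ptgs2* and *Tiparp*. The NF-kB form lay in the windows of *Ccl20*, *Cxcl1*, *Cxcl2* and *Cxcl3* among the 5 matched windows of the 6 neutrophil and dendritic cell chemokines, and it was also found in that of *Ahrr*. GCGTG lay in the windows of *Ccl20* and *Cxcl2*. The letters GCGTG are in about 1 of 3 promoters, and a match does not show that AhR binds there.

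The targeted gene, *Ahr* (ENSMUSG00000019256, chromosome 12, 35497974 to 35535038, minus strand), was at 42.9 to 45.1 CPM with PBS and 50.1 to 56.2 with CRE in AhRfl/fl cells, and at 40.2 to 49.6 and 37.7 to 51.5 CPM in Sftpc-Cre;AhRfl/fl cells. The levels of the genotypes overlapped. The gene had paired log2 ratios of CRE over PBS of 0.39, 0.20 and 0.15 in AhRfl/fl cells and of 0.05, -0.09 and 0.11 in Sftpc-Cre;AhRfl/fl cells. These ranges did not overlap, and the interaction was -0.22 (SE 0.10, unadjusted p = 0.0581 in edgeR). Counts cover the whole gene, so they do not show how many reads fall on the deleted part and check neither the deletion nor the genotype labels.

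The 12 libraries held between 68878065 and 80935797 counts each. AT2 transcripts were present in all of them, with *Abca3*, the lamellar body lipid transporter, at 120 to 168 CPM and *Nkx2-1*, the lung epithelial factor, at 20.5 to 252.6 CPM. The 13 AT2 markers summed to 8008 to 9010 CPM in AhRfl/fl PBS libraries, 6877 to 7689 with CRE, 4618 to 8912 in Sftpc-Cre;AhRfl/fl PBS libraries and 4802 to 9428 with CRE. The 8 club cell markers, mainly the airway secretoglobin *Scgb1a1*, summed to 4167 to 8363 CPM, so airway-type transcripts were abundant in these cultures. In Sftpc-Cre;AhRfl/fl pair 1 the club cell sum exceeded the AT2 sum, at 8363 against 4618 CPM with PBS and 7022 against 4802 with CRE. In the AhRfl/fl PBS library of pair 3 the sums were 8010 and 8008 CPM. The 15 leukocyte markers summed to 18.8 to 444.1 CPM, with *Ptprc* (CD45) at 2.19 to 67.5 CPM, and within each genotype the highest and lowest libraries with PBS were also the highest and lowest with CRE. *Ly6g*, the defining neutrophil marker, stayed at or below 0.322 CPM. In bulk libraries, fewer cells of a type and less RNA per cell cannot be told apart.

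No gene passed for the interaction. edgeR's quasi-likelihood method called 0 of 20612 genes at 0.05 after Benjamini-Hochberg adjustment, with a smallest adjusted p of 0.275. Before adjustment, 1874 genes (9.09%) were below 0.05, 990 with a higher response in Sftpc-Cre;AhRfl/fl cells (4.8%) and 884 with a lower one (4.29%). With libraries scaled by their totals alone, the split was 718 higher and 1137 lower. DESeq2 called 88 genes, and limma-trend and limma-voom with Benjamini-Hochberg adjustment called 0 each. The study's own threshold, a log2 difference above 0.5 in size at an unadjusted p below 0.05, here in limma-trend, was met by 785 genes (3.81%), 336 higher (1.63%) and 449 lower (2.18%). In 700 of these the fitted responses of the genotypes had opposite signs (287 higher and 413 lower). Over all tested genes the responses had the same direction in 11964 (58.0%), and a choice by a large interaction favours opposite signs. The averaged response was called in 37 of the 785, where it was called for 6.59% of all tested genes. The median level of the 785 genes was 1.93 CPM. The 3 paired ratios of the genotypes did not overlap in 3598 genes (17.5%), with those of Sftpc-Cre;AhRfl/fl cells above in 1960 (9.51%) and below in 1638 (7.95%), and an exact two-sided permutation test of a single gene cannot go below p = 0.1 with 3 pairs against 3.

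CRE-responsive genes were chosen by the response averaged over genotypes, an estimate that in this balanced design does not use that of the interaction. edgeR called 1358 genes for the averaged response (6.59%), 716 higher with CRE (3.47%) and 642 lower (3.11%), and 1341 of them had at least 1 CPM. Both tests share the variance of each gene, so the choice favours genes with a small SE. The median SE of the interaction was 0.10 in the 1341 genes and 0.15 in all genes of at least 1 CPM. The choice thus favours narrow intervals and small interaction p-values. Within the genotypes, 748 genes were called in AhRfl/fl cells (3.63%), 386 of them higher (1.87%), and 439 in Sftpc-Cre;AhRfl/fl cells (2.13%), 275 of them higher (1.33%), and the difference between these counts was not itself tested. Of the 1341 genes, 1332 had responses of the same direction in both genotypes and 583 responded more strongly in Sftpc-Cre;AhRfl/fl cells, counts that the choice by averaged response favours or leaves free, respectively. The 95% interval of the interaction lay inside ±1 on the log2 scale for 1253 of them (93.4%) and inside ±0.5 for 947. For the 1253 genes a difference between the genotypes' responses of more than 2-fold was therefore outside the interval, a bound that is wide beside their responses, most of which were small. Of the 97 genes whose averaged response was over 1 in size, the interval lay inside ±1 for 55 (56.7%) and inside ±0.5 for 15. The median rise among the 709 genes higher with CRE was 0.37 in AhRfl/fl and 0.33 in Sftpc-Cre;AhRfl/fl cells on the log2 scale. Among the 632 genes lower with CRE the medians were -0.36 and -0.28, so for a typical gene of either kind an interval inside ±1 still holds a full loss of the response. An unadjusted interaction p below 0.05 was found for 60 higher and 52 lower of the rising genes (15.8%). Among the falling genes it was found for 102 higher (a less negative response) and 22 lower (19.6%). The share was 9.09% of all tested genes and 11.9% of those of at least 1 CPM. After the correction for gene length described below, the counts were 38 higher and 39 lower for rising genes, and 75 and 22 for falling genes.

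**Figure D1:**
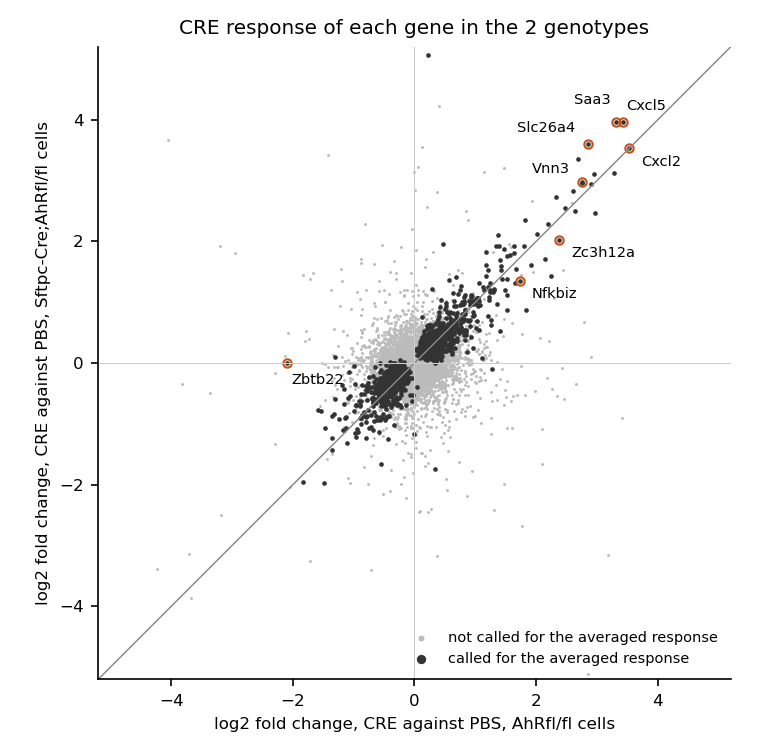
Each point is 1 of 14534 genes of at least 1 CPM, with the fitted log2 CRE response in AhRfl/fl cells on the x axis and that in Sftpc-Cre;AhRfl/fl cells on the y axis. Dark points are genes called for the averaged response, a choice that favours the diagonal line of equal responses along which they run, rings mark labelled genes, and 9 genes lie outside the axes.

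The 20 genes with the largest averaged response, chosen by that value, included the chemokines *Cxcl5*, *Cxcl2*, *Cxcl1*, *Cxcl3*, *Ccl20* and *Ccl3*, the acute-phase protein *Saa3*, the alarmin *Il1a*, the RNase *Zc3h12a* that limits inflammatory transcripts, the itaconate-producing enzyme *Acod1*, the pantetheinase *Vnn3* and the formyl peptide receptors *Fpr1* and *Fpr2*. The others were *Slc26a4*, *Mab21l3*, *U90926*, *Steap4*, *Clec4e*, *Gm49388* and *Ighv7-1*. Of the 20 genes, *Slc26a4* alone had paired ratios that did not overlap between genotypes. *Saa3* had responses of 3.43 and 3.96 (interaction 0.53, 95% interval -1.01 to 2.08), and the interaction was -0.04 without Sftpc-Cre;AhRfl/fl pair 1 and 1.23 without pair 3. *Il1a* had responses of 2.33 and 2.74 (interaction 0.41, interval -0.40 to 1.22). *Zc3h12a* had 2.37 and 2.02 (interaction -0.35, interval -1.20 to 0.51). For these genes the intervals reach beyond a 2-fold difference on 1 side or both, so a difference of that size was not excluded. *Gm49388* and *Ighv7-1* had counts above 20 in only some libraries. *Gm49388* had 0, 0 and 0 counts with PBS and 0, 12 and 1022 with CRE in AhRfl/fl cells, and 0, 0 and 17 with PBS and 10, 3211 and 663 with CRE in Sftpc-Cre;AhRfl/fl cells. It shares 3523 of its 5240 exonic bases with *Setd1a*, which was more abundant (67.8 against 5.57 CPM), so the division of their reads is uncertain. *Ighv7-1*, an immunoglobulin segment, had 718, 360 and 0 counts with PBS and 811, 511 and 0 with CRE in AhRfl/fl cells, and at most 9 in any Sftpc-Cre;AhRfl/fl library. No fold is given for either.

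**Figure D2:**
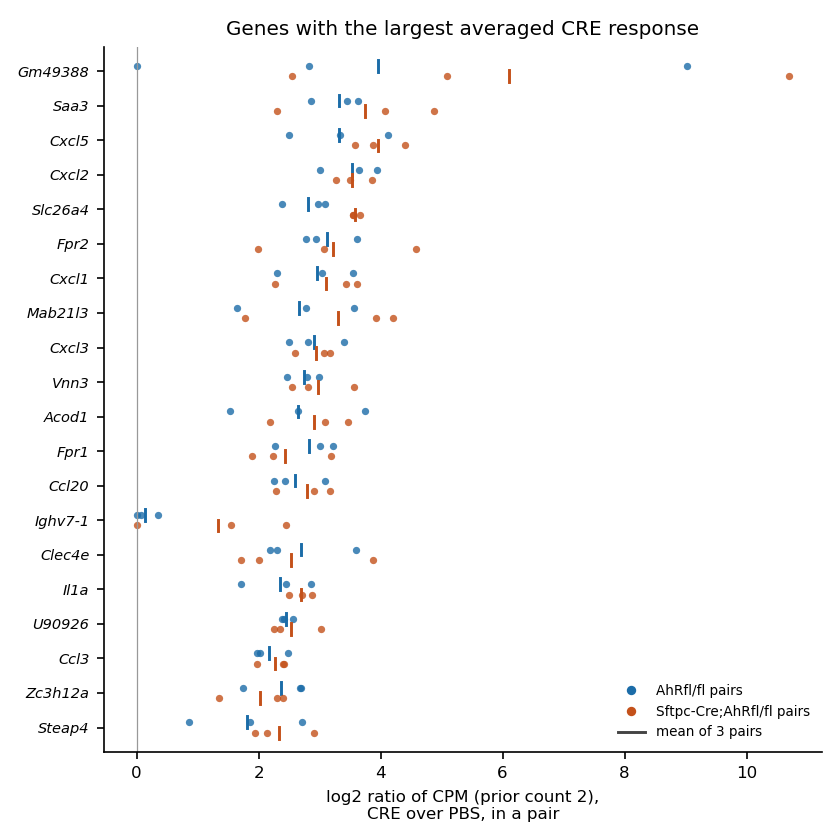
The 20 genes with the largest averaged response are listed on the y axis, and the x axis gives the log2 ratio of CRE over PBS in each pair (points) with the mean of 3 pairs (lines). The points of both genotypes are interleaved for every gene but *Slc26a4*, whose Sftpc-Cre;AhRfl/fl pairs lie to the right.

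Direct AhR targets were examined next. Of 12 listed genes 11 were tested (*Cyp1a2* was too low). The averaged response was called higher for 6 and lower for 0, against 3.47% and 3.11% of all tested genes. The median interaction was -0.06, against 0.01 over all tested genes. An unadjusted interaction p below 0.05 was found for *Ahrr* alone. *Ahrr* encodes the AhR repressor, which competes with AhR for ARNT (ENSMUSG00000021575, chromosome 13, 74211118 to 74292331, minus strand). In AhRfl/fl cells it was at 4.09, 2.96 and 2.33 CPM with PBS and at 5.19, 5.25 and 4.23 CPM with CRE. The Sftpc-Cre;AhRfl/fl libraries had 1.76, 0.681 and 0.895 CPM with PBS and 1.54, 0.519 and 0.747 CPM with CRE. Every AhRfl/fl pair was higher with CRE and every Sftpc-Cre;AhRfl/fl pair lower, a pattern of opposite directions in all pairs that 923 genes (4.48%) showed. The interaction was -0.95 (SE 0.24, 95% interval -1.53 to -0.37, unadjusted p = 0.00609), and its adjusted p of 0.494 by edgeR with Benjamini-Hochberg adjustment did not pass. The responses were 0.68 and -0.28, neither of which passed by itself. The 3 GCGTG matches in the window printed above belong to this gene.

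The Cyp1 enzymes and other AhR-driven genes had smaller interactions than *Ahrr*. *Cyp1b1*, a hydroxylase of steroids and hydrocarbons, was at 344, 404 and 404 CPM with PBS and 349, 465 and 460 CPM with CRE in AhRfl/fl cells. In Sftpc-Cre;AhRfl/fl cells it was at 59.0, 31.8 and 43.3 CPM with PBS and 63.9, 33.8 and 43.7 CPM with CRE. The level was lower in every Sftpc-Cre;AhRfl/fl library than in any AhRfl/fl library, with an interaction of -0.06 (SE 0.07, 95% interval -0.23 to 0.10). *Cyp1a1*, the classical AhR-induced hydroxylase, was at 31.4, 21.1 and 19.8 CPM with PBS and 34.5, 21.3 and 22.6 CPM with CRE in AhRfl/fl cells. In Sftpc-Cre;AhRfl/fl cells it was at 11.2, 6.43 and 5.11 CPM with PBS and 15.2, 6.49 and 8.56 CPM with CRE (interaction 0.29, SE 0.19, interval -0.16 to 0.73). Its averaged response was not called (0.26). *Tiparp*, the ADP-ribosyltransferase that restrains AhR, had responses of 0.31 and 0.14 and an interaction of -0.18 (SE 0.08, interval -0.37 to 0.02). *Ptgs2*, the inducible cyclooxygenase, had 0.62 and 0.40 (interaction -0.22, interval -0.49 to 0.05).

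Targets that AhR shares with NRF2, the sensor of oxidative and electrophilic stress, responded in both genotypes. *Nqo1*, a quinone reductase, was at 122, 103 and 97.9 CPM with PBS and 173, 167 and 170 CPM with CRE in AhRfl/fl cells, and at 39.4, 50.5 and 38.9 CPM with PBS and 61.0, 75.0 and 57.4 CPM with CRE in Sftpc-Cre;AhRfl/fl cells. The level was lower in the Sftpc-Cre;AhRfl/fl libraries at both treatments while the ratios to PBS of the genotypes differed by less than their error, with responses of 0.66 and 0.59 and an interaction of -0.08 (interval -0.28 to 0.13). *Aldh3a1*, an aldehyde dehydrogenase, had responses of 0.80 and 0.98 (interaction 0.18, interval -0.32 to 0.68). *Gsta1*, a glutathione transferase, had 1.02 and 1.07 (interaction 0.05, interval -0.38 to 0.47). The responses of these 3 genes passed in both genotypes. *Ugt1a6a* and *Ugt1a6b* share exons, so the division of their reads is uncertain. The 7 genes of the receptor complex had a median interaction of -0.10 and none at an unadjusted p below 0.05.

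Of 13 NRF2 target genes, 10 rose in the averaged response and 0 fell, against 3.47% and 3.11% of all tested genes. None had an unadjusted interaction p below 0.05 (median interaction 0.07). *Gclc*, the rate-limiting enzyme of glutathione synthesis, was at 707, 776 and 735 CPM with PBS and at 1531, 1948 and 1745 CPM with CRE in AhRfl/fl cells. The Sftpc-Cre;AhRfl/fl libraries had 608, 558 and 725 CPM with PBS and 1199, 1256 and 1553 CPM with CRE. CRE libraries lay above all PBS libraries in both genotypes, and the interaction was -0.15 (SE 0.07, interval -0.32 to 0.03). *Slc7a11*, the cystine importer, rose by 1.49 and 1.21 (interaction -0.27, SE 0.14), and *Hmox1*, heme oxygenase, by 0.50 and 0.58 (interaction 0.08, SE 0.06).

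**Figure D3:**
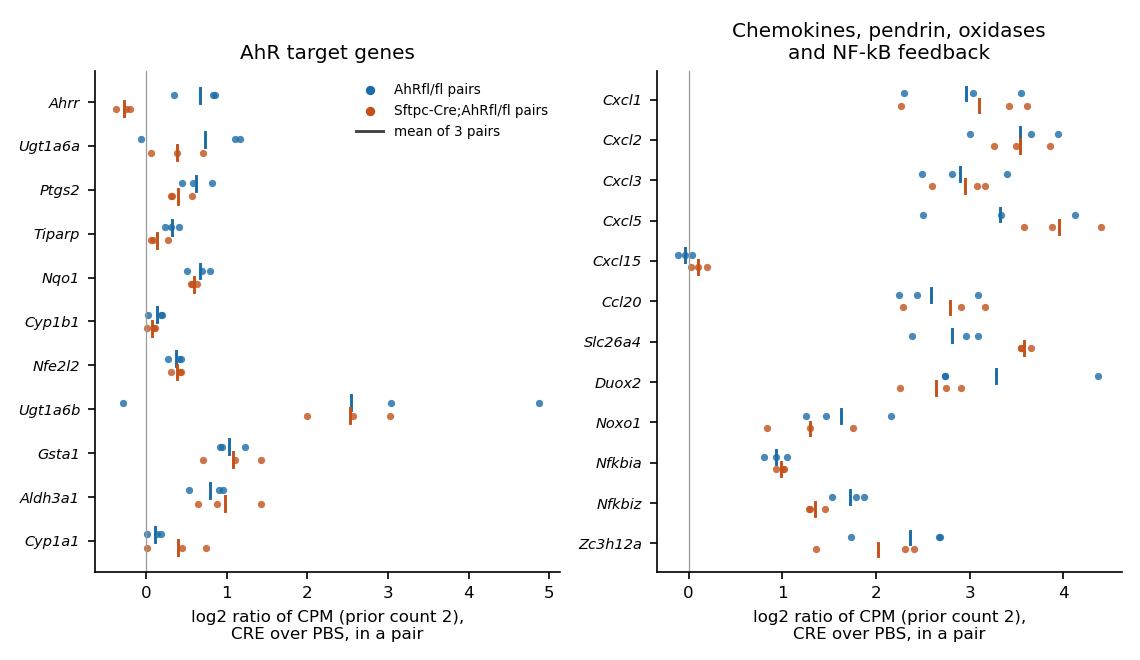
The x axes give the log2 ratio of CRE over PBS in each pair (points; lines are the mean of 3 pairs) for 11 AhR target genes (left) and for chemokines, pendrin, oxidase subunits and NF-kB feedback genes (right). *Ahrr* and *Slc26a4* have separated genotypes in opposite directions, and *Nfkbiz* is separated in the direction of *Ahrr*. The ratios of *Cxcl1*, *Cxcl2* and *Cxcl3* are interleaved.

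Chemokines for neutrophils and dendritic cells responded in both genotypes. Of 6 genes, 5 rose in the averaged response, where 3.47% of all tested genes did, and none had an unadjusted interaction p below 0.05. *Cxcl2* was at 6.74, 2.62 and 2.42 CPM with PBS and 54.0, 40.8 and 30.7 CPM with CRE in AhRfl/fl cells. In Sftpc-Cre;AhRfl/fl cells it was at 3.96, 2.27 and 4.57 CPM with PBS and 38.2, 33.4 and 51.7 CPM with CRE. Each CRE library was above every PBS library, and the responses of 3.53 and 3.54 gave an interaction of 0.01 (SE 0.27, 95% interval -0.62 to 0.65). The interaction of *Cxcl1* was 0.15 (interval -0.88 to 1.18), that of *Cxcl3* 0.06 (-0.55 to 0.66) and that of *Ccl20*, which attracts dendritic cells through CCR6, 0.22 (-0.55 to 0.99). *Cxcl5* was at 8.46, 4.13 and 7.82 CPM with PBS and 48.0, 72.5 and 79.2 CPM with CRE in AhRfl/fl cells. It was at 4.90, 2.47 and 2.60 CPM with PBS and 59.0, 52.7 and 38.6 CPM with CRE in Sftpc-Cre;AhRfl/fl cells, for an interaction of 0.64 (SE 0.41, interval -0.33 to 1.61) that was 0.23 without AhRfl/fl pair 1 and 1.03 without pair 2. *Cxcl15*, a lung epithelial chemokine, did not pass in either genotype (-0.04 and 0.10). Among 11 other chemokines tested, *Cxcl10*, which attracts T cells, had an interaction of 0.30 (SE 0.11, unadjusted p = 0.0334) with responses of 0.54 and 0.84.

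*Slc26a4*, which encodes the chloride, iodide and bicarbonate exchanger pendrin (ENSMUSG00000020651, chromosome 12, 31519827 to 31559969, minus strand), was the 1 gene among the 20 with the largest averaged response whose pairs were separate. AhRfl/fl cells were at 0.894, 0.951 and 0.915 CPM with PBS and 4.78, 7.61 and 7.99 CPM with CRE. Sftpc-Cre;AhRfl/fl cells were at 1.09, 1.84 and 2.31 CPM with PBS and 13.0, 21.7 and 29.4 CPM with CRE. At both treatments all Sftpc-Cre;AhRfl/fl libraries lay above all AhRfl/fl libraries, and the gap was wider with CRE. The responses were 2.85 and 3.60, both past the threshold, and the interaction was 0.75 (SE 0.21, 95% interval 0.25 to 1.25, unadjusted p = 0.00957). It did not pass over all genes (adjusted p = 0.494 by edgeR with Benjamini-Hochberg adjustment, and 0.300 to 1 over the alternatives). *Duox2*, an epithelial hydrogen peroxide producer, had 3.44 and 2.80 (interaction -0.63, interval -2.01 to 0.75), and *Noxo1*, an organizer of NADPH oxidase, 1.65 and 1.31 (interaction -0.34, interval -1.20 to 0.53). Of the 9 oxidase and pendrin genes tested, *Slc26a4* alone had an unadjusted interaction p below 0.05.

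Of 18 genes for NF-kB subunits and feedback inhibitors, 11 rose in the averaged response, where 3.47% of all tested genes did. At an unadjusted interaction p below 0.05, 1 was higher and 2 were lower, against 4.8% and 4.29% of all tested genes. *Nfkbiz*, the nuclear IkB-zeta that directs secondary NF-kB targets, was at 26.8, 18.6 and 19.0 CPM with PBS and 77.4, 68.2 and 65.4 CPM with CRE in AhRfl/fl cells. The Sftpc-Cre;AhRfl/fl libraries had 20.5, 21.1 and 28.8 CPM with PBS and 50.1, 58.0 and 71.1 CPM with CRE. The rise was present in all 6 pairs and smaller in each Sftpc-Cre;AhRfl/fl pair (responses 1.73 and 1.35, interaction -0.38, SE 0.11, 95% interval -0.65 to -0.11, unadjusted p = 0.0121). *Nfkbie*, the IkB-epsilon inhibitor, had responses of 0.88 and 0.21, neither past the threshold (interaction -0.67, SE 0.26, unadjusted p = 0.038). *Tnip1*, a partner of A20, had 0.15 and 0.33 (interaction 0.17, unadjusted p = 0.0279). *Nfkbia*, the rapid IkB-alpha inhibitor, had 0.93 and 0.99 (interaction 0.06, interval -0.13 to 0.24).

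Of 16 alarmins and other cytokines tested, 8 rose and 1 fell in the averaged response, against 3.47% and 3.11% of all tested genes. *Tgfb1* alone had an unadjusted interaction p below 0.05. *Il33*, an alarmin that activates type 2 lymphocytes, was at 13.3, 21.5 and 20.5 CPM with PBS and 31.3, 54.8 and 51.0 CPM with CRE in AhRfl/fl cells. It was at 10.7, 15.2 and 20.02 CPM with PBS and 25.5, 35.8 and 44.6 CPM with CRE in Sftpc-Cre;AhRfl/fl cells. It rose in both (1.30 and 1.22), with an interaction of -0.08 (SE 0.09, interval -0.29 to 0.12). *Tgfb1*, the cytokine of the AhR axis that the study pursued, was at 49.7, 33.6 and 32.6 CPM with PBS and 45.4, 31.6 and 32.2 CPM with CRE in AhRfl/fl cells. In Sftpc-Cre;AhRfl/fl cells it was at 38.3, 38.7 and 30.6 CPM with PBS and 44.0, 43.2 and 33.8 CPM with CRE. Each AhRfl/fl pair was lower with CRE and each Sftpc-Cre;AhRfl/fl pair higher, by small amounts that did not pass in either genotype (-0.08 and 0.17). The interaction was 0.24 (SE 0.08, interval 0.06 to 0.43, unadjusted p = 0.0163, adjusted p = 0.507 by edgeR with Benjamini-Hochberg adjustment). *Tgfb3* fell in both genotypes (-0.65 and -0.47, interaction 0.19, unadjusted p = 0.026), and the other 16 of 18 genes for TGF-beta ligands, receptors and targets had an unadjusted p of 0.05 or more.

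Secreted defence proteins, vanins, interferon genes and prostaglandin genes were listed as well. Of 17 antimicrobial and acute-phase genes, *Lyz1*, *Lyz2* and *Wfdc2* had a higher interaction at an unadjusted p below 0.05 (0.19, 0.17 and 0.26), where 4.8% of all tested genes did, while the siderophore-binding *Lcn2* rose by 1.52 and 1.76 and the protease inhibitor *Slpi* by 1.64 and 1.93 (interactions 0.25 and 0.29, not below 0.05). The pantetheinases *Vnn1* and *Vnn3* had interactions of 0.26 (interval -0.06 to 0.58) and 0.23 (-0.45 to 0.90). *Isg15* and *Bst2* among 26 interferon-stimulated genes had 0.37 and 0.29. Among 10 genes of prostaglandin synthesis, *Ptges2* had an unadjusted p below 0.05.

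Autophagy is the pathway on which the study centred. Of 41 genes of the machinery, 2 rose and 3 fell in the averaged response, which was called for 6.59% of all tested genes, and the median interaction was 0.02. An unadjusted interaction p below 0.05 was found for 7 higher and 1 lower, against 4.8% and 4.29% of all tested genes. *Gabarap* and *Gabarapl2*, members of the LC3 family on the autophagosome, had interactions of 0.21 and 0.17. *Vamp8*, a SNARE of its fusion with lysosomes, had 0.23, and *Atg101*, a subunit of the initiating ULK1 complex, 0.29. *Sqstm1*, the p62 cargo receptor, was at 2266, 2542 and 2183 CPM with PBS and 2680, 2871 and 2726 CPM with CRE in AhRfl/fl cells. The Sftpc-Cre;AhRfl/fl libraries had 1831, 1847 and 2405 CPM with PBS and 2354, 2660 and 3172 CPM with CRE. *Sqstm1* rose in both genotypes (0.25 and 0.43), with an interaction of 0.18 (SE 0.06, interval 0.05 to 0.32, unadjusted p = 0.0161). *Uvrag*, a subunit of a PI3-kinase complex, had -1.37 (unadjusted p = 0.0184), but its AhRfl/fl PBS libraries alone ran from 20.6 to 70.0 CPM.

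The study named 17 autophagy genes, and 4 of these had a higher and 0 a lower interaction at an unadjusted p below 0.05, against 4.8% and 4.29% of all tested genes. The 4 were *Fbxl2*, *Usp10*, *Map1lc3a* and *Sqstm1*. The study drew *Fbxl2* and *Usp10* from these samples, so the count is not independent evidence of a direction. *Map1lc3a* (LC3A) and *Sqstm1* (p62) are autophagy markers that it assayed in other samples, and both are also counted among the machinery genes above. *Fbxl2*, an F-box ubiquitin ligase subunit, was at 4.44, 5.22 and 5.38 CPM with PBS and 2.98, 3.44 and 2.15 CPM with CRE in AhRfl/fl cells. It was at 7.37, 4.09 and 4.65 CPM with PBS and 6.36, 4.37 and 5.53 CPM with CRE in Sftpc-Cre;AhRfl/fl cells (interaction 0.87, SE 0.26, unadjusted p = 0.0133). *Usp10*, a deubiquitinase, had 0.64 (SE 0.23, unadjusted p = 0.0293). *Calcoco2*, the NDP52 cargo receptor, had 23, 11 and 13 counts with PBS and 0, 11 and 11 with CRE in AhRfl/fl cells, and 16, 27 and 21 with PBS and 51, 34 and 26 with CRE in Sftpc-Cre;AhRfl/fl cells. Every Sftpc-Cre;AhRfl/fl pair was higher with CRE, and the interaction was 2.17 with an SE of 1.47 (interval -1.30 to 5.65), a range too wide to place it on either side of 0 at these counts. *S100a9*, a calcium-binding protein of neutrophils, had 975, 1100 and 149 counts with PBS and 644, 1122 and 253 with CRE in AhRfl/fl cells. It had 137, 462 and 28 with PBS and 109, 385 and 67 with CRE in Sftpc-Cre;AhRfl/fl cells (interaction 0.20, SE 0.50). The 10 neutrophil markers, of which *S100a9* is 1, summed to 8.54 to 58.3 CPM with PBS and 18.5 to 57.5 with CRE in AhRfl/fl cells and to 4.30 to 20.9 and 4.37 to 19.0 in Sftpc-Cre;AhRfl/fl cells. Their part in the *S100a9* values was not tested.

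Epithelial identity genes are given next. Among 13 AT2 markers, 5 had a higher and 0 a lower interaction at an unadjusted p below 0.05, and among 12 genes of the transitional Krt8-high state between AT2 and AT1 cells, 8 higher and 0 lower, where the shares of all tested genes were 4.8% and 4.29%. *Sftpc*, surfactant protein C, was at 6016, 6217 and 5476 CPM with PBS and 5155, 5207 and 4699 CPM with CRE in AhRfl/fl cells. In Sftpc-Cre;AhRfl/fl cells it was at 3086, 4591 and 6183 CPM with PBS and 3216, 4631 and 6492 CPM with CRE. All AhRfl/fl pairs were lower with CRE and all Sftpc-Cre;AhRfl/fl pairs marginally higher, although the Sftpc-Cre;AhRfl/fl libraries ran from 3086 to 6492 CPM. The fall in AhRfl/fl cells passed (-0.23), the response of 0.05 did not, and the interaction was 0.28 (SE 0.03, 95% interval 0.21 to 0.35, unadjusted p = 3.84e-05), the smallest unadjusted p among genes of at least 1 CPM with a higher response and separate pairs. Its adjusted p was 0.275 by edgeR with Benjamini-Hochberg adjustment and 0.0436 in DESeq2, and lay between 0.0436 and 1 over the alternatives. The *Sftpc* promoter also drives Cre in one genotype. *Sftpa1*, surfactant protein A, had -0.14 and 0.12 (interaction 0.25, SE 0.04).

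*Cldn18*, the alveolar tight junction claudin, was at 1022, 1708 and 1449 CPM with PBS and 764, 1265 and 1107 CPM with CRE in AhRfl/fl cells. In Sftpc-Cre;AhRfl/fl cells it was at 1463, 2114 and 1779 CPM with PBS and 1311, 1971 and 1645 CPM with CRE. All 6 pairs were lower with CRE, by 0.39 to 0.43 in AhRfl/fl cells and by 0.10 to 0.16 in Sftpc-Cre;AhRfl/fl cells, on the log2 scale. The interaction was 0.29 (SE 0.04, interval 0.20 to 0.38, unadjusted p = 0.00012). The AT1 genes *Ager* and *Aqp5*, a membrane receptor and a water channel of the thin gas-exchange cell, fell in both genotypes, by 0.96 and 0.75 in AhRfl/fl cells and by 0.69 and 0.41 in Sftpc-Cre;AhRfl/fl cells. Their interactions were 0.27 (SE 0.06) and 0.34 (SE 0.08). *Akap5* of the same 11-gene list went the other way (interaction -0.46, SE 0.13). The AT1 markers had 2 higher and 2 lower interactions at an unadjusted p below 0.05, against 4.8% and 4.29% of all tested genes. In the averaged response 6 of them fell, where 3.11% of all tested genes did. The 11 AT1 markers summed to 2874 to 3684 CPM with PBS and 2073 to 2633 with CRE in AhRfl/fl cells, and to 3176 to 4166 and 2440 to 3014 in Sftpc-Cre;AhRfl/fl cells. Among the keratins of simple epithelium, *Krt8* had an interaction of 0.16 (SE 0.03) and *Krt18* of 0.26 (SE 0.05), and the falls of both passed in AhRfl/fl cells and not in Sftpc-Cre;AhRfl/fl cells. *Krt23* was at 141, 207 and 157 CPM with PBS and 134, 183 and 148 CPM with CRE in AhRfl/fl cells. It was at 87.5, 120 and 135 CPM with PBS and 113, 149 and 157 CPM with CRE in Sftpc-Cre;AhRfl/fl cells, where it rose (responses -0.12 and 0.30, interaction 0.42, SE 0.06).

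Gene length moved with the interaction, and with these small differences in particular. Over the 14543 genes of at least 1 CPM, the median interaction fell from 0.12 in the genes with the shortest exons (57 to 1316 bases in all) to -0.15 in the longest (9612 to 123179 bases). The Spearman correlation of the interaction with exon length was -0.32, across genes, which share the same libraries and are not independent. In the second length decile 201 genes had a higher and 18 a lower interaction at an unadjusted p below 0.05, and in the longest decile 16 and 302. The correlation of the ratio with length was 0.06, 0.29 and 0.16 in AhRfl/fl pairs 1, 2 and 3 and -0.04, -0.20 and -0.04 in the Sftpc-Cre;AhRfl/fl pairs, so pair 2 of each genotype was the most extreme. The transitional genes had a median length of 1856 bases, against 3420 over all tested genes. An alternative chosen after seeing the data removed from each library a smooth curve of its log2 CPM deviation on log2 exon length. The correlation was then 0.00, and 1414 genes (6.86%) had an unadjusted p below 0.05, 739 higher (3.59%) and 675 lower (3.27%).

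With the length correction, the interactions of *Ahrr* (-0.86), *Slc26a4* (0.69), *Nfkbiz* (-0.38), *Tgfb1* (0.25), *Cldn18* (0.27) and *Actr3* (-0.48) moved little. That of *Sftpc* went from 0.28 to 0.16, *Sftpa1* to 0.18, *Krt18* to 0.14, *Krt23* to 0.30 and *Krt8* to 0.06, the last with an unadjusted p of 0.116. *Gabarap* went to 0.10, *Gabarapl2* to 0.08 and *Sqstm1* to 0.13. The number of genes with a higher interaction at an unadjusted p below 0.05 went from 8 to 4 for the transitional list, from 7 to 5 for the autophagy machinery, from 5 to 3 for the AT2 markers, from 2 to 4 for the AT1 markers and from 3 to 0 for the antimicrobial proteins. *Tiparp* joined *Ahrr* at an unadjusted p of 0.0415 (interaction -0.20). Among motile cilium genes, 3 with a lower interaction at an unadjusted p below 0.05, the long dynein genes *Dnah5* (-0.54) and *Dnah11* (-0.45) and *Cfap44* (-0.52), became 0.

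**Figure D4:**
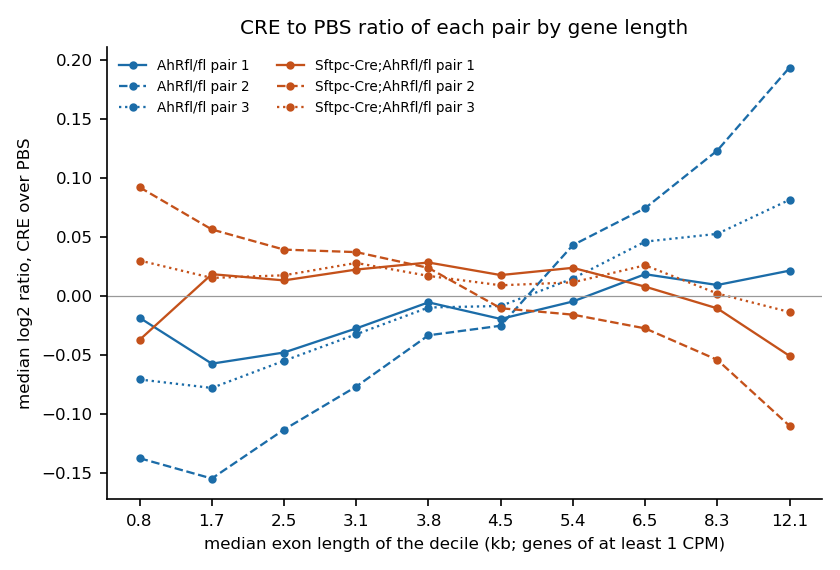
Genes of at least 1 CPM are grouped in 10 deciles by exon length (x axis, median length in kb), and the y axis gives the median log2 ratio of CRE over PBS in each of the 6 pairs (lines). Lines of AhRfl/fl pairs tend to rise with length and lines of Sftpc-Cre;AhRfl/fl pairs are flat or fall, most in pair 2 of each genotype.

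The genes with the smallest unadjusted p in each direction, among those of at least 1 CPM with separate paired ratios, are described last. *Actr3*, a subunit of the Arp2/3 complex that branches actin filaments (ENSMUSG00000026341, chromosome 1, 125392905 to 125435727, minus strand), was at 312, 307 and 312 CPM with PBS and 481, 472 and 472 CPM with CRE in AhRfl/fl cells. The Sftpc-Cre;AhRfl/fl libraries had 306, 435 and 298 CPM with PBS and 342, 461 and 344 CPM with CRE. It rose in AhRfl/fl cells (0.61), with pairs from 0.60 to 0.63, and had a response of 0.15 that did not pass in Sftpc-Cre;AhRfl/fl cells. The interaction was -0.47 (SE 0.05, 95% interval -0.59 to -0.34, unadjusted p = 4.16e-05, adjusted p = 0.275 by edgeR with Benjamini-Hochberg adjustment, and 4.4e-05 to 1 over the alternatives, the lowest with DESeq2).

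*Hipk2*, a kinase acting on transcription factors, was at 22.6, 19.9 and 15.4 CPM with PBS and 28.0, 26.3 and 21.4 CPM with CRE in AhRfl/fl cells. It was at 36.0, 23.8 and 22.7 CPM with PBS and 28.9, 19.7 and 19.2 CPM with CRE in Sftpc-Cre;AhRfl/fl cells, so that the pairs went opposite ways (interaction -0.67, SE 0.09). *Rreb1*, a zinc finger factor downstream of Ras, was at 24.6, 19.5 and 20.1 CPM with PBS and 54.8, 65.7 and 56.4 CPM with CRE in AhRfl/fl cells. It was at 57.4, 22.3 and 21.1 CPM with PBS and 21.1, 15.6 and 19.3 CPM with CRE in Sftpc-Cre;AhRfl/fl cells, where PBS replicate 1 stood apart from the other two (interaction -2.16, SE 0.33). *Tia1*, a stress granule protein, had an interaction of -0.70, and *Epb41l5*, a junction adaptor, of -0.50. *Zfand5*, a proteasome activator, was at 174, 78.7 and 171 CPM with PBS and 88.7, 102 and 113 CPM with CRE in AhRfl/fl cells. It rose in Sftpc-Cre;AhRfl/fl cells from 60.4, 67.0 and 82.8 CPM to 167, 190 and 239 CPM (interaction 1.90, SE 0.31). *Cldn3* had an interaction of 0.32, the endoplasmic reticulum proteins *Sdf2* and *Lnpk* of 0.54 and 0.80, and the ribosomal stalk protein *Rplp0* of 0.24.

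**Figure D5:**
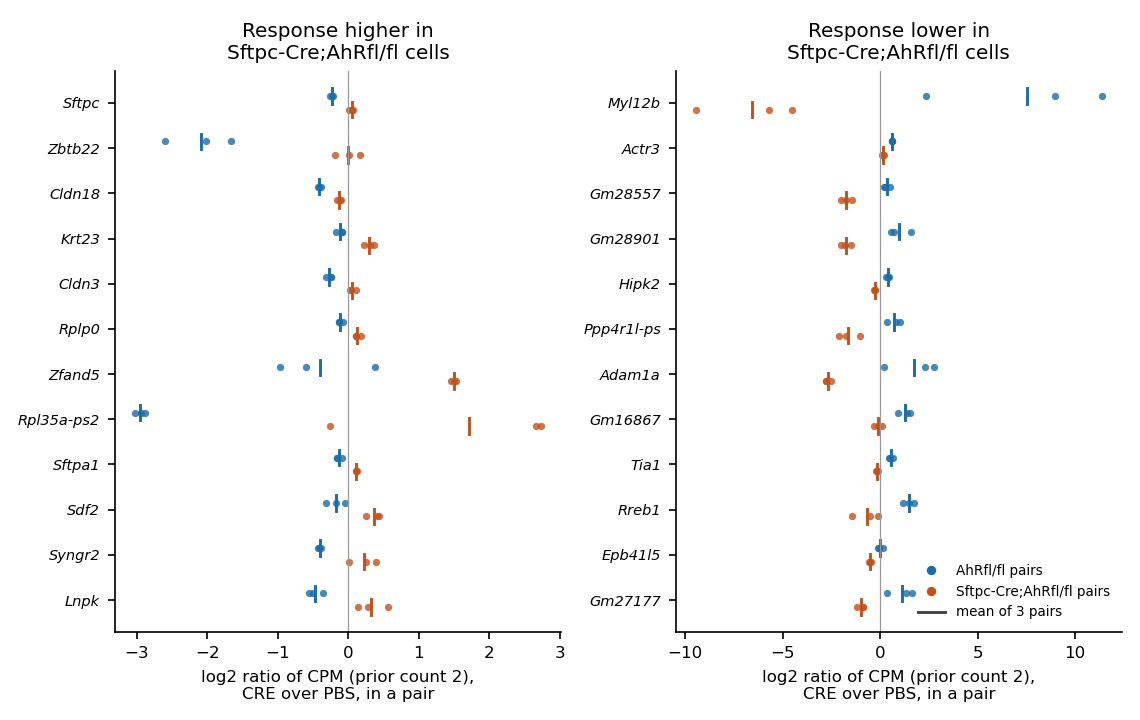
For the 12 genes with the smallest unadjusted interaction p in each direction, the x axes give the log2 ratio of CRE over PBS in each pair (points; lines are the mean of 3 pairs), on separate scales. In all 24 genes the points of the genotypes are separate, which the choice of the genes required.

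Several of the largest interactions lie in genes that share exons with a neighbour, where the division of reads is uncertain. Of the 33 genes chosen by p or by size, 12 share exonic bases on the same strand, against 8.38% of all tested genes. The *Myl12b* entry ENSMUSG00000117098, a myosin light chain, had 7, 5 and 0 counts with PBS and 4737, 36 and 5146 with CRE in AhRfl/fl cells, and 45, 5325 and 3378 with PBS and 0, 90 and 3 with CRE in Sftpc-Cre;AhRfl/fl cells. It shares 739 of its 1201 bases with the other *Myl12b* entry, and the sum of both had an interaction of -0.09. The other entry was more abundant (250.3 against 20.1 CPM) and had 0.36 by itself, so the sum is weighted towards it. The entry ENSMUSG00000117098 also shares 462 of its bases on the same strand with *Myl12a*, and that sum had 0.19. *Myl12a* was at 730.8 CPM and had 0.35 by itself. The *Chtf8* entry ENSMUSG00000117748 shares all of its 2786 bases with the main *Chtf8* entry, and their sum had 0.11 in place of -7.98, with 2.12 for the main entry by itself. *Adam1a* (-4.45) shares 4779 of its 7508 bases with *Gm42878*, which had 5.13, and the sum of these 2 had -2.95. *Adam1a* also shares 1805 bases on the same strand with *Mapkapk5*, and the sum of *Adam1a* and *Mapkapk5* had -0.03. *Mapkapk5* was more abundant (55.9 against 13.7 CPM) and had 0.87 by itself, so that sum is weighted towards it. *Zbtb22* (2.09) shares 149 of its 2673 bases with *Tapbp*, which was more abundant (239.6 against 30.3 CPM) and had 0.21. *Syngr2*, a vesicle protein, kept 0.55 of 0.63 when summed with *Gm20708*. *Rpl35a-ps2* (interaction 4.77) is a pseudogene of a ribosomal protein, whose reads may belong to other copies. Of the 88 genes that DESeq2 called, 38 higher and 50 lower, 20 (22.7%) share exons on the same strand, and *Sftpc* was the only member of the gene lists among them.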

How the data were processed

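RNA-seq libraries of AT2 cells, 3 for each of 4 groups, were aligned by the authors to GRCm38 with STAR 2.7.2b and quantified with Salmon, and the deposited gene counts are whole, unnormalized numbers. How whole numbers were reached, and whether the counting used the strand that the TruSeq stranded kit keeps, are not stated. The methods name RefSeq, whereas all 55450 gene IDs match GENCODE M21, which gave symbols, positions and exon lengths. The deposited FPKM, made by the authors from the counts, served for 1 alternative only. The combined table held the same values and was not used.

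Groups were taken from the labels. Counts were normalized with TMM, filtered with filterByExpr (minimum count 10) and tested with edgeR 4.0.16 (R 4.3.3) by its quasi-likelihood test, in 1 fit of 12 libraries with 1 term for each of the 6 pairs and a CRE term for each genotype (4 residual degrees of freedom), with Benjamini-Hochberg adjustment at 0.05 over all 20612 genes. All p-values given without another name are from this test, intervals cover 95%, and CPM use TMM library sizes. Paired ratios are differences of log2 CPM with a prior count of 2. The rule with an unadjusted p below 0.05 and a size above 0.5 used limma-trend (limma 3.58.1) on the same scale. That replicate numbers pair the libraries was checked on the counts of 11476 genes: deviations from the group means of same-numbered CRE and PBS libraries correlated at 0.727, 0.395 and 0.629 in AhRfl/fl cells and 0.592, 0.527 and 0.337 in Sftpc-Cre;AhRfl/fl cells, and those of different numbers between -0.596 and 0.122. Deviations of 3 libraries from their mean sum to 0, so values above 0 for the same number push those of different numbers down. The different-number values are therefore not a separate check. The pairing comes from these data, since the labels give only the number. No 2 libraries of a group agreed within sampling noise. The fit was tested on simulated data.

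Named genes are the 12 genes with the smallest interaction p in each direction and the 6 with the largest interaction in each direction at an unadjusted p below 0.05, both among genes of at least 1 CPM with separate paired ratios, the 20 with the largest called averaged response of at least 1 CPM, the members of 25 gene lists, and genes the study names. The members and lists were chosen with earlier results of these data known. Alternatives were DESeq2 1.42.0, limma-trend and limma-voom with Benjamini-Hochberg adjustment, no pairing, pairing across genotypes, other scalings, filters and prior count, log2(FPKM + 1), a length correction and leaving out each pair.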

Additional observations from a re-analysis of the deposited data

How the results depend on the processing

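The interaction calls of edgeR stayed at 0 under every alternative except the leave-out fits, and DESeq2 called 88. Leaving out 1 pair called 0 to 4 genes: *Tnfaip1*, *Srcap* and *Ctdsp2* without AhRfl/fl pair 1, *Zfand5* without pair 2, *Adam1a*, *Mob1a* and *Zfx* without pair 3, *Rpl35a-ps2*, *Tsc22d1*, *Cdk14* and *Wdfy1* without Sftpc-Cre;AhRfl/fl pair 1, and *Ahcyl2* without pair 3. Without the replicate block, so with no pairing, 226 genes were called for the averaged response (1358 with it), 48 in AhRfl/fl cells (748) and 54 in Sftpc-Cre;AhRfl/fl cells (439), and 475 met the size and p rule for the interaction (785). With a replicate block shared across genotypes the calls were 529, 137 and 112. DESeq2 called 1491 and 935 genes in the 2 genotypes, and 446 were called in AhRfl/fl cells without a filter. Leaving out a pair gave 634 to 941 calls for the averaged response, 129 to 426 in AhRfl/fl cells and 85 to 351 in Sftpc-Cre;AhRfl/fl cells. Genes meeting the size and p rule numbered 1179 without a filter, 470 with a filter of 1 CPM in 3 libraries, 271 on log2(FPKM + 1), and 737 to 977 without 1 pair. Counts at an unadjusted interaction p below 0.05 were 763 without pairing and 1103 with the shared block. Direction was followed for 112 genes. They were genes chosen by p, size or averaged response, list members with an unadjusted interaction p below 0.05, and some others. Where the choice required separate pairs, leaving out 1 pair could hardly change a sign, so part of the agreement was fixed in advance. The interactions kept their direction in 1753 of 1789 values under the alternatives, and 32 of the other 36 had both values within 1 SE of 0. The remaining 4 were *Cxcl2* (-0.27 without AhRfl/fl pair 1, up to 0.22 without pair 2), *Fpr2* (0.67 without Sftpc-Cre;AhRfl/fl pair 1, down to -0.76 without pair 3), *Il1a* (-0.015 without AhRfl/fl pair 1) and *Lcn2* (-0.0070 without Sftpc-Cre;AhRfl/fl pair 2, up to 0.37 without pair 3). Except where stated, the cause of a shift was not tested. With 3 pairs a genotype, the median SE of the interaction was 0.15 over genes of at least 1 CPM.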

Other observations

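Genes of other cell types that the cultures could hold had single members with separate responses. Among 9 endothelial markers, *Tek*, the angiopoietin receptor, was at 3.48, 1.46 and 2.38 CPM with PBS and 5.46, 2.87 and 4.70 CPM with CRE in AhRfl/fl cells, and at 4.57, 3.08 and 3.58 CPM with PBS and 4.10, 3.63 and 3.36 CPM with CRE in Sftpc-Cre;AhRfl/fl cells (interaction -0.87, SE 0.21, unadjusted p = 0.00491). *Egfl7*, a secreted vascular factor, had an interaction in the other direction (0.58, SE 0.14), and the 7 further endothelial markers had an unadjusted p of 0.05 or more. *Itgax*, the CD11c integrin of alveolar macrophages and dendritic cells, fell with CRE in both genotypes, by 0.58 and 1.13 (interaction -0.55, SE 0.16, unadjusted p = 0.0105). *Car4*, of the same list of 14 alveolar macrophage markers, was counted 12, 13 and 16 times in the PBS libraries and 0 times in all CRE libraries of AhRfl/fl cells, and 40, 17 and 32 times with PBS and 17, 9 and 16 times with CRE in Sftpc-Cre;AhRfl/fl cells. A library with 0 counts allows up to 3, so no fold is drawn from it, and the limit covers counting error only. The alveolar macrophage markers summed to 185 to 356 CPM with PBS and 449 to 525 with CRE in AhRfl/fl cells, and to 165 to 284 and 363 to 375 CPM in Sftpc-Cre;AhRfl/fl cells. Of the 14 markers, however, 7 fell and 2 rose in the averaged response (median -0.65), against 3.11% and 3.47% of all tested genes. *Plet1*, a riser that epithelium also expresses, had the highest level (232.3 CPM) of the list.

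Of 15 leukocyte markers, *Laptm5* had an interaction of 0.32 (unadjusted p = 0.0314). None of 10 neutrophil, 10 fibroblast and smooth muscle, and 8 club cell markers had an unadjusted interaction p below 0.05, with median interactions of -0.38, 0.03 and 0.08.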
